A study of Mus musculus with 9 samples.

Results

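The kinesin family was followed in mouse cytotoxic T lymphocytes (CTL), the effector form of CD8 T cells, after treatment with 2 inhibitors of the kinase mTOR. Members were all genes whose symbol begins with Kif or Kifc and a digit and that had at least 1 probe set assigned to that symbol alone. The rule gave 41 genes, with 104 probe sets, of 18193 genes on the array. Each gene was read from its probe set with the highest mean over the 9 arrays. Of the 41 genes, 12 are known for their work in mitosis (Kif2c, Kif4, Kif11, Kif14, Kif15, Kif18a, Kif18b, Kif20a, Kif20b, Kif22, Kif23 and Kifc1), and these mitotic kinesins were compared with the other 29. One further probe set, shared by Kif27 and another symbol, was left out.

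All cultures were wild type and carried the P14 T cell receptor transgene, so that their CD8 T cells recognise the viral peptide gp33-41. Spleen cells of 3 mice were stimulated with that peptide and the cytokines IL-2 and IL-12 for 48 h, washed, and grown for 96 h more. Over the final 48 h each culture had the solvent DMSO alone, rapamycin (20 nM) or KU-0063794 (1 uM), and RNA was taken on day 6. Rapamycin acts with FKBP12 on mTOR complex 1, whereas KU-0063794 blocks the kinase site of mTOR in both of its complexes. Each group held 3 arrays, and the arrays numbered 1, 2 and 3 in each group came from the same 3 spleens. The cells are cultured effector cells from one receptor transgene, and the labels name no sorting step.

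Kinesins are motor proteins that use ATP to move along microtubules or to shorten them. Mitotic kinesins build the spindle, move chromosomes and help to divide the cell, and their transcripts are made mainly in the G2 and M phases of the cell cycle. Other kinesins carry organelles, vesicles and proteins through the cell, and in CTL kinesin-driven transport takes part in moving lytic granules to the contact with a target cell.

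Values are log2 signals as the authors deposited them, and 1 unit is a doubling. The array medians were 0.47 to 0.53 and 29.2 to 29.8% of probe sets lay above background on each array. Background is taken as 1.45, the 95th percentile of 28 genes restricted to other tissues. Of the 8 CD8 T cell markers, 8 were above it in each group, and Cd8a averaged 6.55 in DMSO. The CD4 T cell, B cell, NK cell and myeloid lists had 2 of 5, 2 of 7, 2 of 4 and 1 of 9 measured markers above it. Those above it in DMSO were Ctla4 (6.13) and Il2ra (8.13), which activated CD8 T cells also express, Ighm (8.03) and Cd79b (1.80) of B cells, Klrc1 (5.04) and Eomes (5.03), which CTL can express, and Csf1r (1.87) of myeloid cells. Ighm, the IgM heavy chain, was 6.96, 9.28 and 7.85 in spleens 1, 2 and 3 with DMSO, 7.24, 9.30 and 8.39 with rapamycin, and 7.45, 9.20 and 8.27 with KU-0063794, so that it differed by spleen and its groups overlapped. Cd4 (1.10), Cd79a (0.76), Ncr1 (0.57) and Lyz2 (0.20) were below background in DMSO. The part of other cells in the results was not tested. The ranges of the summed levels of these 4 lists overlapped between each inhibitor group and DMSO. The summed level of the 5 erythroid or stromal markers was 2.80 to 3.00 in DMSO, 1.89 to 2.75 with rapamycin and 2.75 to 3.18 with KU-0063794, and among them Pecam1 alone was above background, in the DMSO and KU-0063794 groups.

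Promoter sequence is described first, although it was searched after the expression fits had been run. A link between its letters and the expression changes was not tested. RefSeq promoters (GRCm38.p6, 250 bases before and 50 after the annotated start) were matched for 33 of the 41 genes, 11 of them mitotic. The first promoter listed for each gene was used, here and over all genes. The cell cycle genes homology region (CHR) is an element bound by the DREAM and MuvB complexes at many G2 and M genes, and it was searched as TTTGAA or TTCGAA. The box bound by NF-Y was searched as CCAAT. Both were searched on both strands, and no match of one overlapped a match of the other. CHR letters were present in 10 of 11 mitotic kinesin promoters (90.9%) and in 4 of 22 promoters of other kinesins (18.2%), against 19.4% of the promoters of 27025 genes. Among the 10619 tested genes with a promoter the share was 13.6%. CCAAT letters were in 7 of 11 (63.6%), 9 of 22 (40.9%) and 37.9% of the same promoter sets. The remaining mitotic promoter, that of Kif18a, held neither. A match describes letters and does not show a bound site.

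The following 60 bases lie directly before the start of Kif11 (chr19:37376322-37376381, plus strand), Kif22 (chr7:127042421-127042480, minus strand) and Kif15 (chr9:122951021-122951080, plus strand), and the 30 bases for the other 5 genes surround the CHR letters near the start of Kif18b (chr11:102925104-102925133, minus strand), Kif20b (chr19:34922353-34922382, plus strand), Kif23 (chr9:61946780-61946809, minus strand), Kif4 (chrX:100626072-100626101, plus strand) and Kifc1 (chr17:33890615-33890644, minus strand). They are shown because CHR letters lay within 60 bases before or 50 bases after the start in these 8 genes. Each is written 5′ to 3′ on the strand of its gene, with CHR and CCAAT letters, or their reverse complements TTCAAA and ATTGG, in capitals.
Kif11: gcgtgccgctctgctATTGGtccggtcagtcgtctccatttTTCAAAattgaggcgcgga
Kif22: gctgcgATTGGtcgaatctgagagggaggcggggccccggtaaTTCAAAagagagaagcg
Kif15: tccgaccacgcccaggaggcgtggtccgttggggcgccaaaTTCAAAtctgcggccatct
Kif18b: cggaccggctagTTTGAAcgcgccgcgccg
Kif20b: gagccgccattgTTTGAATTTGAAaaccgg
Kif23: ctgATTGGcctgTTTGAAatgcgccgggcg
Kif4: ctctgggatcaaTTTGAAacttggcggtta
Kifc1: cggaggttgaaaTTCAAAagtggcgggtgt

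Counting the annotated start as 1 and bases before it as negative, the CHR letters began at -19 in Kif11, -17 in Kif22 and -19 in Kif15. They began at 4 in Kif18b, at 3 in Kif23, at 20 in Kif4 and at 2 in Kifc1. Kif20b held them as 2 adjoining copies, at 8 and 14. Kif2c held them at -103 only, and Kif14 at -228 only. For these genes the start used lay inside the gene. The bases before it were chr4:117178773-117178832 (minus strand) in Kif2c, whose gene ends at 117182624. They were chr1:136467788-136467847 (plus strand) in Kif14, whose gene begins at 136466301. Both Kif2c and Kif14 are counted among the 10 of 11 mitotic promoters with CHR letters. In Kif22, Kif20b, Kif23 and Kif18b the start used also lay inside the gene, but nearer its edge. The bases before the start of Kif22 began at 127042421, and its gene ends at 127042467. Its CHR letters at -17 thus lay within the annotated gene. Kif22 had a second CHR match at -215 and Kif15 at -234. In 6 of the 8 genes shown, CCAAT letters lay upstream of the match near the start, at -45 in Kif11, -54 in Kif22, -7 in Kif23 and -5 in Kif4, at -53 and -30 in Kif18b, and at -74 and -45 in Kifc1. Kif15 and Kif20b had CHR letters without CCAAT letters. Among the other kinesins the 4 genes with CHR letters were Kif24, Kif26b, Kif27 and Kifc5b.

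**Figure D1:**
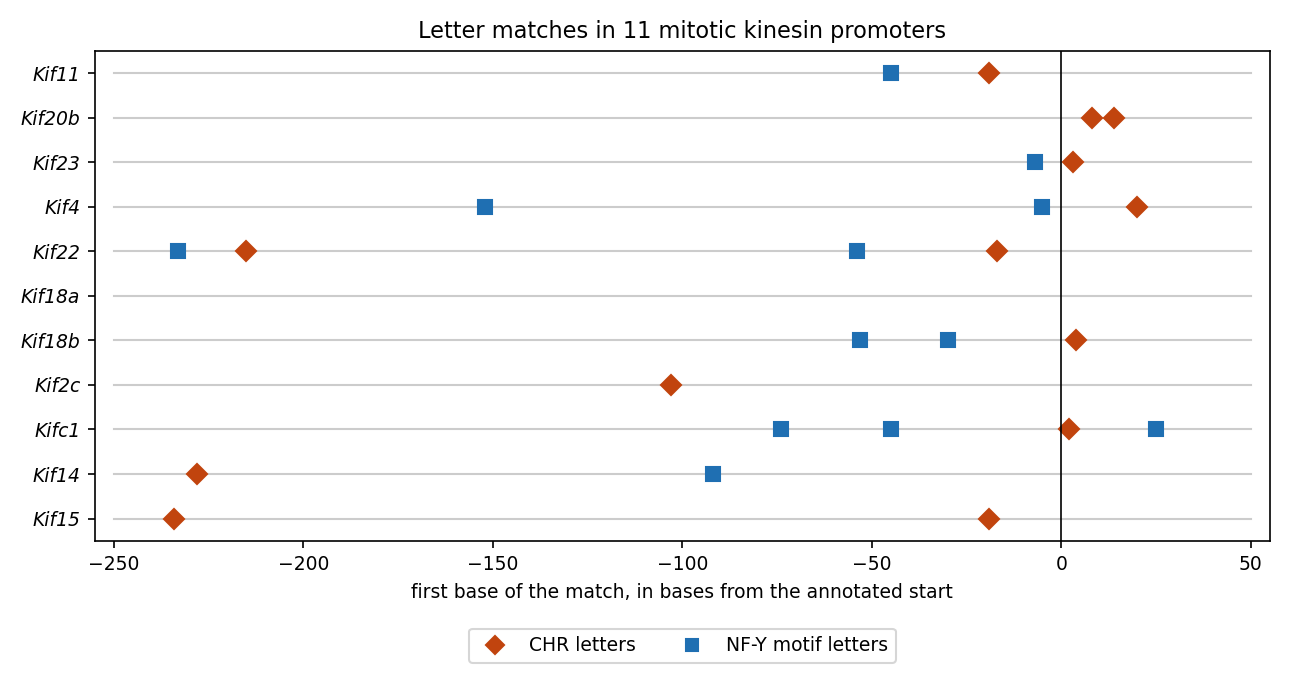
Positions of CHR letters (red diamonds) and of the letters bound by NF-Y (blue squares) in the 11 mitotic kinesin promoters listed; the horizontal axis is distance in bases from the annotated start. CHR letters appear in 10 of the 11 promoters, near the start in most of them, and Kif18a has no match of either kind.

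The first comparison asked how mTOR inhibition altered the mitotic kinesins. Of the 12, 10 passed the filter on low signal (a mean above 0.31), and all of these 10 were above background in every group. Kif14, which acts with citron kinase in cytokinesis, and Kif15, which helps to keep the spindle bipolar, lay below the filter at 0.04 and 0.30. The nearest gene above the filter was Kif13a at 0.32. With rapamycin 9 of the 10 tested mitotic kinesins rose against DMSO (limma, adjusted p under 0.05), where 2.65% of 13278 genes rose. With KU-0063794 the same 9 rose, where 2.28% of genes did. No mitotic kinesin fell, where 1.79% of genes fell with rapamycin and 1.78% with KU-0063794. With a term for the spleen in the model the same 9 passed with each inhibitor, where 6.24% and 6.52% of genes rose and 5.52% and 5.86% fell. The median log2 fold change of the 10 was 0.73 with rapamycin and 0.66 with KU-0063794, beside -0.00427 and 0.0114 over all genes tested. Linear fold changes of the 9 ran from 1.37 to 1.95 with rapamycin and from 1.37 to 1.75 with KU-0063794. Both comparisons use the same 3 DMSO arrays. In cultures measured as bulk RNA, more cells of a type or cell cycle phase and more RNA per cell cannot be told apart.

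Kif11, also called Eg5, is the motor that pushes the spindle poles apart. In spleens 1, 2 and 3 its signal was 3.89, 4.28 and 4.01 with DMSO, 4.997, 4.97 and 4.68 with rapamycin, and 4.94, 4.85 and 4.63 with KU-0063794. All 6 inhibitor arrays lay above all DMSO arrays. Kif11 rose by 0.82 (SE 0.13, limma adjusted p = 0.0134) with rapamycin and by 0.74 (adjusted p = 0.0194) with KU-0063794. The probe set used, the one with the highest mean, and a second bright probe set gave near values, the latter 0.75 and 0.82, while the dimmest, close to background, gave 0.25 and 0.09.

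Kif20a, Kif20b and Kif23 act late in division. Kif20a carries the chromosomal passenger complex to the central spindle, and it had the largest fold change of the family in both comparisons. Its signal was 4.34, 4.71 and 4.79 with DMSO, 5.46, 5.46 and 5.80 with rapamycin, and 5.36, 5.36 and 5.54 with KU-0063794. The DMSO arrays did not overlap either inhibitor group. Kif20a rose by 0.96 (SE 0.14, limma adjusted p = 0.0100) with rapamycin, a 1.95-fold difference, and by 0.81 (adjusted p = 0.0177) with KU-0063794. Kif20b, a motor of the midbody, read 3.18, 3.54 and 3.46 with DMSO, 4.22, 4.04 and 4.43 with rapamycin, and 4.14, 4.02 and 4.02 with KU-0063794. It too was higher on all 6 inhibitor arrays than on any DMSO array, by 0.83 (limma adjusted p = 0.0105) and 0.67 (adjusted p = 0.0209). Kif23 forms the centralspindlin complex with Racgap1. It read 4.45, 5.01 and 4.93 with DMSO, 5.44, 5.63 and 5.74 with rapamycin, and 5.44, 5.51 and 5.60 with KU-0063794. Its groups did not overlap either, with DMSO spleen 1 lowest by a margin, and it rose by 0.81 (limma adjusted p = 0.0177) and 0.72 (adjusted p = 0.0286).

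Kif4 and Kif22 are chromokinesins, which bind chromosome arms. Kif4 read 3.39, 3.64 and 3.67 with DMSO, 4.12, 4.23 and 4.08 with rapamycin, and 4.07, 4.06 and 3.93 with KU-0063794. Kif22 read 6.56, 6.90 and 7.04 with DMSO, 7.35 on all 3 rapamycin arrays, and 7.38, 7.36 and 7.45 with KU-0063794. Every inhibitor array exceeded every DMSO array for both genes. Kif4 rose by 0.58 (limma adjusted p = 0.0146) and 0.45 (adjusted p = 0.0339), and Kif22 by 0.52 (adjusted p = 0.0364) and 0.56 (adjusted p = 0.0286). Identical values on different arrays were common in the deposited table: 66.7% of tested genes had at least 2 equal arrays, and 4 of the 10 mitotic kinesins did. Equal values on all 3 rapamycin arrays, as for Kif22, were rarer. They occurred in 212 of 13278 tested genes and in 1 of the 10 mitotic kinesins.

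Kif18a, Kif18b and Kif2c act on microtubule ends. Kif18a damps the movement of aligned chromosomes, and it read 1.70, 1.89 and 2.06 with DMSO, 2.29, 2.45 and 2.27 with rapamycin, and 2.29, 2.46 and 2.27 with KU-0063794. It was closest to background of the 9 and had the highest adjusted p in both comparisons (limma, 0.0466 with a rise of 0.46, and 0.0494 with a rise of 0.46). Kif18b, which limits the length of astral microtubules, read 2.25, 2.54 and 2.87 with DMSO, 3.15, 3.24 and 3.35 with rapamycin, and 3.37, 3.31 and 3.10 with KU-0063794. Its DMSO arrays were widely spread and still lay below all 6 others, and it rose by 0.70 (limma adjusted p = 0.0324) and 0.71 (adjusted p = 0.0318). Kif2c, or MCAK, shortens microtubules to correct wrong attachments of chromosomes. It read 4.43, 4.59 and 4.63 with DMSO, 5.43, 5.19 and 5.33 with rapamycin, and 5.19, 5.20 and 5.21 with KU-0063794. Kif2c had the lowest adjusted p of the family in both comparisons (limma, 0.00597 and 0.0102), with a rise of 0.77 (SE 0.09) and 0.65. Its other probe sets above background gave smaller differences. The brighter gave 0.66 with rapamycin and 0.43 with KU-0063794. The dimmer gave 0.42 and 0.25, and with KU-0063794 it was higher in only 2 of 3 spleens.

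Kifc1, a minus-end motor that gathers spindle poles, was the one tested mitotic kinesin that did not pass. It read 4.29, 4.63 and 4.27 with DMSO, 4.46, 4.96 and 4.55 with rapamycin, and 4.95, 4.84 and 4.44 with KU-0063794. The groups overlapped. The difference was 0.26 (95% interval -0.13 to 0.65, limma adjusted p = 0.497) with rapamycin and 0.34 (-0.05 to 0.74, adjusted p = 0.338) with KU-0063794. Within each spleen Kifc1 was nevertheless higher with each inhibitor, by 0.17, 0.33 and 0.29 and by 0.65, 0.21 and 0.17. Kifc1 has a near-identical copy, Kifc5b, and its only probe set is of a type that may bind several transcripts, so its value is uncertain. The probe set assigned to Kifc5b averaged 0.24, under the filter.

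**Figure D2:**
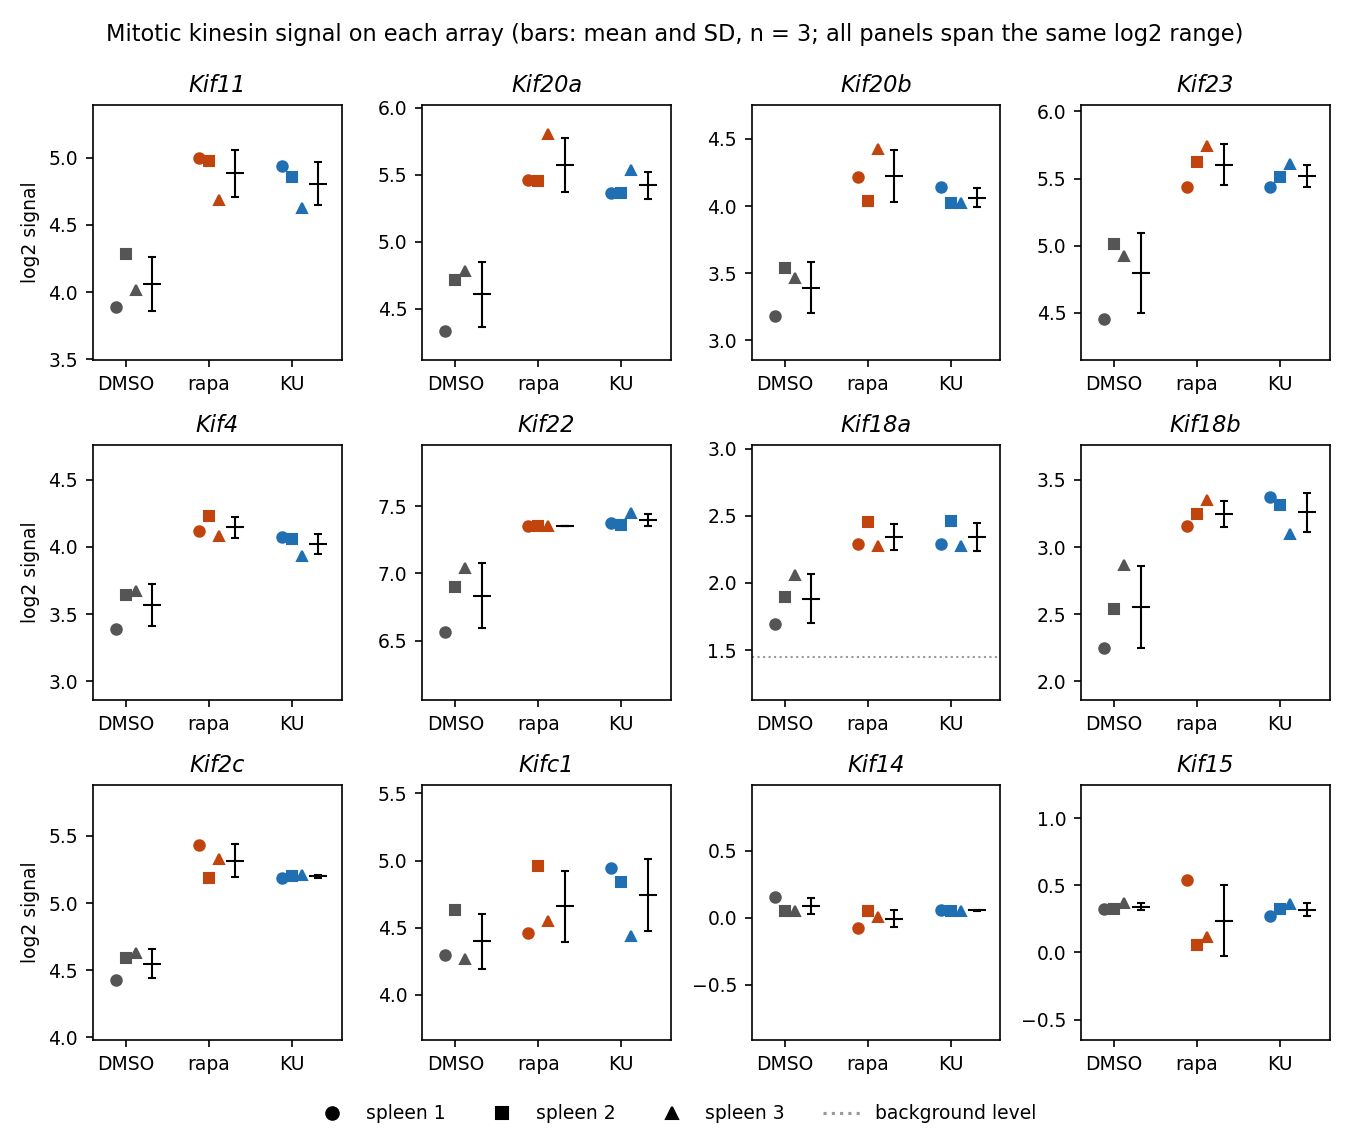
Log2 signal (vertical axis) of the 12 mitotic kinesins on each array, by group, with 1 symbol per spleen; bars give the mean and SD of 3 arrays, and the dotted line marks background. All 6 inhibitor arrays lie above all 3 DMSO arrays in 9 genes, while Kifc1 overlaps and Kif14 and Kif15 stay below background.

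Counted without a model, 9 of the 12 mitotic kinesins had all rapamycin arrays above all DMSO arrays, where 9.38% of tested genes did, and 9 had all KU-0063794 arrays above them, where 11% did. None had an inhibitor group wholly below DMSO, where 9.69% of genes did with rapamycin and 9.29% with KU-0063794. Within spleens the 10 mitotic kinesins above background were higher with rapamycin in 10 of 10 cases in each spleen, and likewise with KU-0063794. Of all 7938 tested genes above background, 4056, 4094 and 3577 were higher with rapamycin in spleens 1, 2 and 3. With KU-0063794 3837, 4433 and 3756 of them were higher. The median difference of the 10 mitotic kinesins was 0.95, 0.59 and 0.58 in spleens 1, 2 and 3 with rapamycin, and 0.89, 0.53 and 0.48 with KU-0063794. The differences were thus largest in spleen 1. Its DMSO array was the lowest DMSO array for 9 of the 10 genes, and the median SD of a gene over 3 arrays was 0.20 in DMSO, 0.14 with rapamycin and 0.09 with KU-0063794. The other 10 kinesins above background had median differences of -0.05, 0.11 and -0.05 with rapamycin and of -0.04, 0.11 and 0.14 with KU-0063794.

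**Figure D3:**
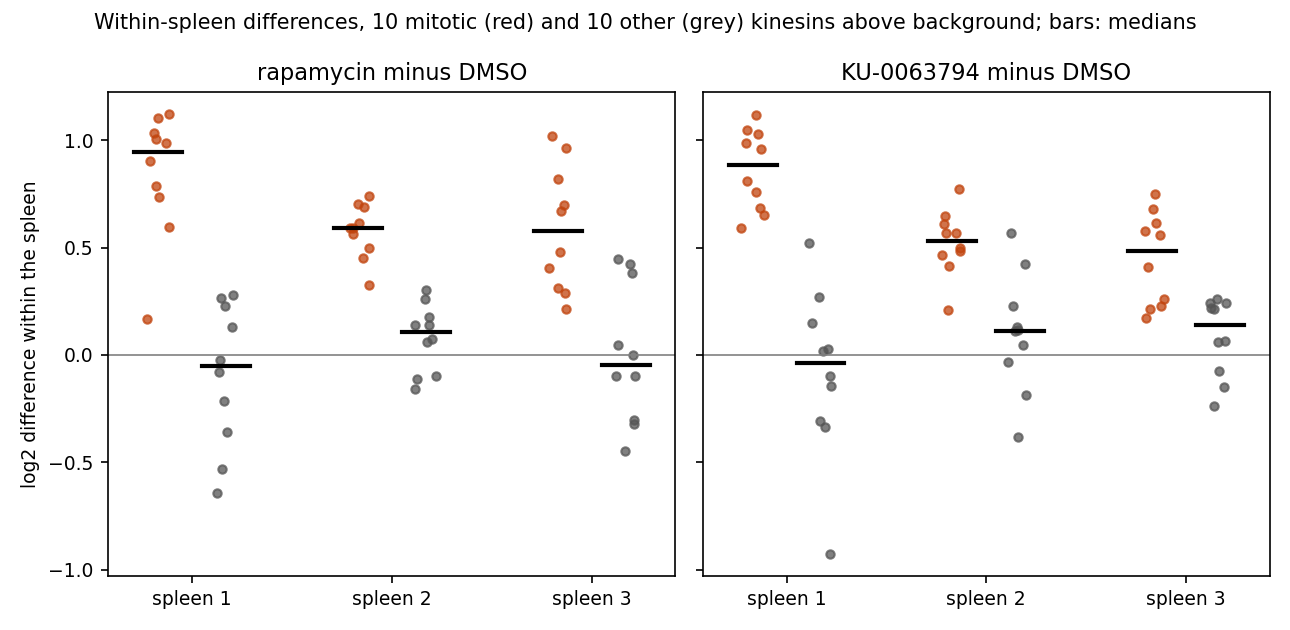
Inhibitor minus DMSO log2 difference within each spleen (vertical axis) for 10 mitotic kinesins (red) and 10 other kinesins (grey) above background; black bars are medians. All mitotic points lie above 0 in every spleen, with the highest medians, 0.95 and 0.89, in spleen 1, while the other kinesins scatter around 0.

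The calls depended on which arrays were left out. With any 1 array left out, the count of mitotic kinesins ran from 5 to 9 with rapamycin and from 1 to 8 with KU-0063794. Without DMSO replicate 1, 5 of the 10 mitotic kinesins passed with rapamycin and 1 with KU-0063794. The count with rapamycin was also 5 without rapamycin replicate 1, 2 or 3, and the count with KU-0063794 was 1 without KU-0063794 replicate 1 or 2, and 2 without its replicate 3. With a term for the spleen in the model and DMSO replicate 1 left out, the counts were 7 and 5. They were 4 without KU-0063794 replicate 1 and 5 without its replicate 2, both for KU-0063794. With a whole spleen left out none of the 10 passed in limma, and 0 to 3 of all genes did. A fit on only the 2 groups compared called 1 mitotic kinesin in each comparison. RNA quality was read from control probes: the beta-actin control probes gave a 3'-to-5' log2 gap of 0.49 to 0.65 in DMSO, 0.62 to 0.72 with rapamycin and 0.65 to 0.70 with KU-0063794, and the Gapdh control gave -0.21 to 0.04, -0.25 to -0.03 and -0.22 to -0.03. Within each of the 3 spleens the actin gap was higher and the Gapdh gap lower with each inhibitor than with DMSO, so the controls moved in opposite directions. Their part in the result was not tested.

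The second comparison set the other 29 kinesins beside these. Of them, 23 passed the filter and 10 were above background in at least 1 group. The other 13 tested genes lay below background in every group, and 6 were not tested (Kif21a, Kif26a, Kif28, Kif2b, Kif6 and Kifc5b). None of the 23 passed the limma threshold with rapamycin or with KU-0063794, where 4.44% and 4.07% of all genes did. At an unadjusted p under 0.05 there were 2 in each, Kif24 and Kifc3 with rapamycin and Kif1c and Kif2a with KU-0063794. These are 8.7% of the 23 in each comparison, where 17.9% and 18.5% of all genes had such a p. The median log2 fold change of the 23 was -0.03 and 0.04. The difference between the medians of the mitotic and the other tested kinesins was 0.77 with rapamycin and 0.62 with KU-0063794. The 2 sets differ in signal, since the 23 include the 13 below background and all 10 tested mitotic genes were above it.

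**Figure D4:**
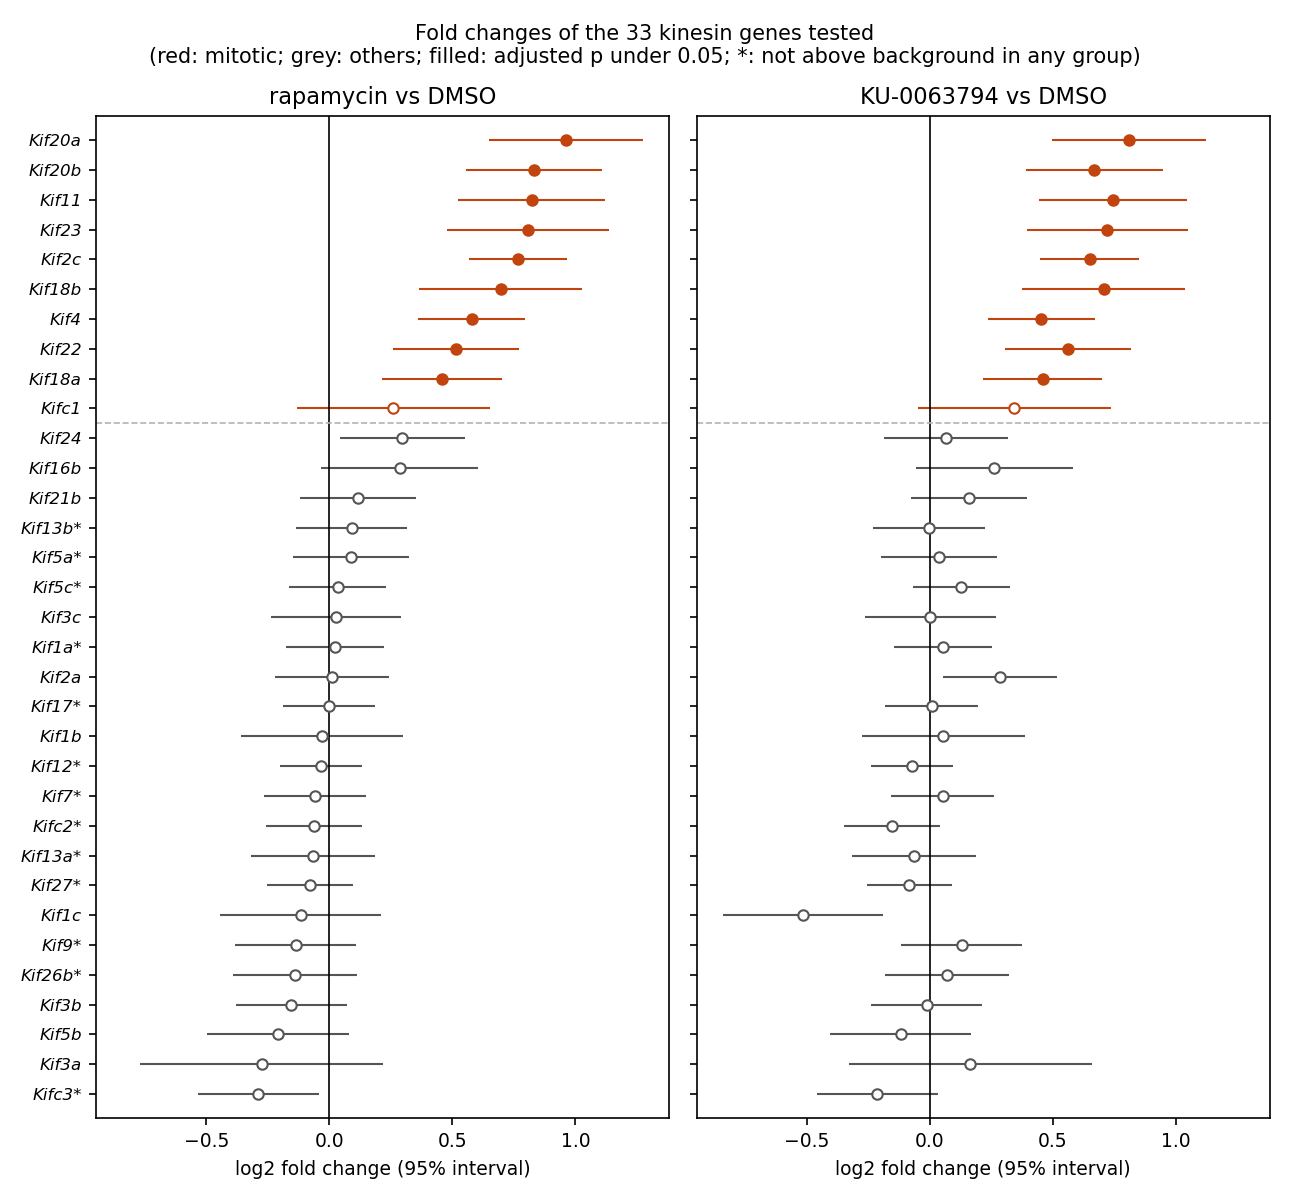
Log2 fold change against DMSO with 95% intervals (horizontal axes) for the 33 kinesin genes tested, mitotic genes in red above the dashed line and others in grey; filled points passed at an adjusted p under 0.05 and a star marks genes below background. Filled points are 9 mitotic genes in each panel, and no other kinesin is filled.

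Among cargo motors, Kif5b is the heavy chain of conventional kinesin, which carries many vesicles and organelles. It read 5.50, 5.56 and 5.40 with DMSO, 5.48, 5.40 and 4.96 with rapamycin, and 5.40, 5.38 and 5.33 with KU-0063794. The groups overlapped or touched, and the differences of -0.21 (limma adjusted p = 0.449) and -0.12 (adjusted p = 0.701) did not pass. All 5 of its 6 probe sets that were above background had lower means with both inhibitors, by -0.36 to -0.03 and by -0.56 to -0.11, and 3 and 4 of them were lower in all 3 spleens. These probe sets read 1 gene, and the share of all probe sets lower in all 3 spleens is not given here. Its relatives Kif5a and Kif5c, known mainly from neurons, were below background.

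Kif1c, which carries vesicles and mRNA, read 3.11, 2.58 and 2.74 with DMSO, 2.58, 2.71 and 2.79 with rapamycin, and 2.18, 2.19 and 2.50 with KU-0063794. The KU-0063794 arrays lay below all DMSO arrays, as they did for 9.29% of genes, and the rapamycin arrays overlapped them. With rapamycin no other kinesin lay wholly below DMSO. The difference was -0.52 (SE 0.14, limma adjusted p = 0.0896) with KU-0063794 and -0.12 with rapamycin. With the spleen as a random block the first had an adjusted p of 0.0405, the one setting under which a kinesin outside the mitotic group passed, and as a fixed block 0.0522. Kif1b, its close relative, showed 0.05 with KU-0063794 and -0.03 with rapamycin.

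Kif2a, a microtubule depolymerase related to Kif2c, read 4.56, 4.78 and 4.62 with DMSO, 4.79, 4.68 and 4.52 with rapamycin, and 5.08, 4.90 and 4.84 with KU-0063794. The KU-0063794 arrays were the highest, by 0.29 (limma adjusted p = 0.175), and lay above all DMSO arrays, as they did for 11% of tested genes. Its probe sets disagreed, since the others above background gave -0.04 and -0.27 with KU-0063794 and -0.21 and -0.32 with rapamycin. Kif24, a centriole protein that limits the growth of cilia and one of the 4 other kinesins with CHR letters, read 1.31, 1.52 and 1.45 with DMSO, 1.58, 1.69 and 1.90 with rapamycin, and 1.33, 1.63 and 1.52 with KU-0063794. Its rapamycin arrays lay above all DMSO arrays, as they did for 9.38% of tested genes. All values were near background, and the difference of 0.30 did not pass (limma adjusted p = 0.199).

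The heterotrimeric transport motor is made of Kif3a with Kif3b or Kif3c. Kif3a gave -0.28 with rapamycin and 0.16 with KU-0063794, Kif3b -0.15 and -0.01, and Kif3c 0.03 and 0.00. Kif21b, which regulates microtubule growth in T cells, gave 0.12 and 0.16, and Kif16b, a motor of early endosomes, 0.29 and 0.26. None of these passed, with limma adjusted p from 0.338 to 0.999.

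The third comparison set KU-0063794 against rapamycin, each at its 1 dose, 20 nM for rapamycin and 1 uM for KU-0063794, so the doses differ. No tested kinesin passed, and 0% of 13278 genes did in limma, although 629 genes had an unadjusted p under 0.05. For the 10 mitotic kinesins the difference ran from -0.16 (Kif20b) to 0.08 (Kifc1), with 7 below and 3 above 0, and none had an unadjusted p under 0.05. Their 95% intervals lay within -0.47 to 0.47, so differences smaller than this are not excluded. Among the other kinesins 3 had an unadjusted p under 0.05, namely Kif1c (-0.40), Kif2a (0.27) and Kif9 (0.27), the last below background. Each of the 3 had the same sign in all 3 spleens, but they were picked by their p on these same arrays, so this adds no support. The limma adjusted p was 0.933 for each.

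The 104 probe sets gave the same split when read singly. Of the 17 mitotic probe sets above background, which stand for 10 genes and are not independent of each other, 16 were higher with rapamycin in all 3 spleens and 15 with KU-0063794. Their median difference was 0.70 and 0.56. Of the 8 mitotic probe sets below background, none was higher in all spleens with either inhibitor. Of the 17 probe sets of other kinesins above background, 2 and 3 were higher and 5 and 6 lower in all 3 spleens. Of their 62 probe sets below background, 7 and 2 were higher and 6 and 3 lower. The share of all probe sets on the array that moved 1 way in all 3 spleens is not given here. How unusual these counts are therefore cannot be read from them. Kif23 has a second probe set near background whose difference was 0.79 with rapamycin and 0.28 with KU-0063794, beside 0.81 and 0.72 for the brighter one.

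**Figure D5:**
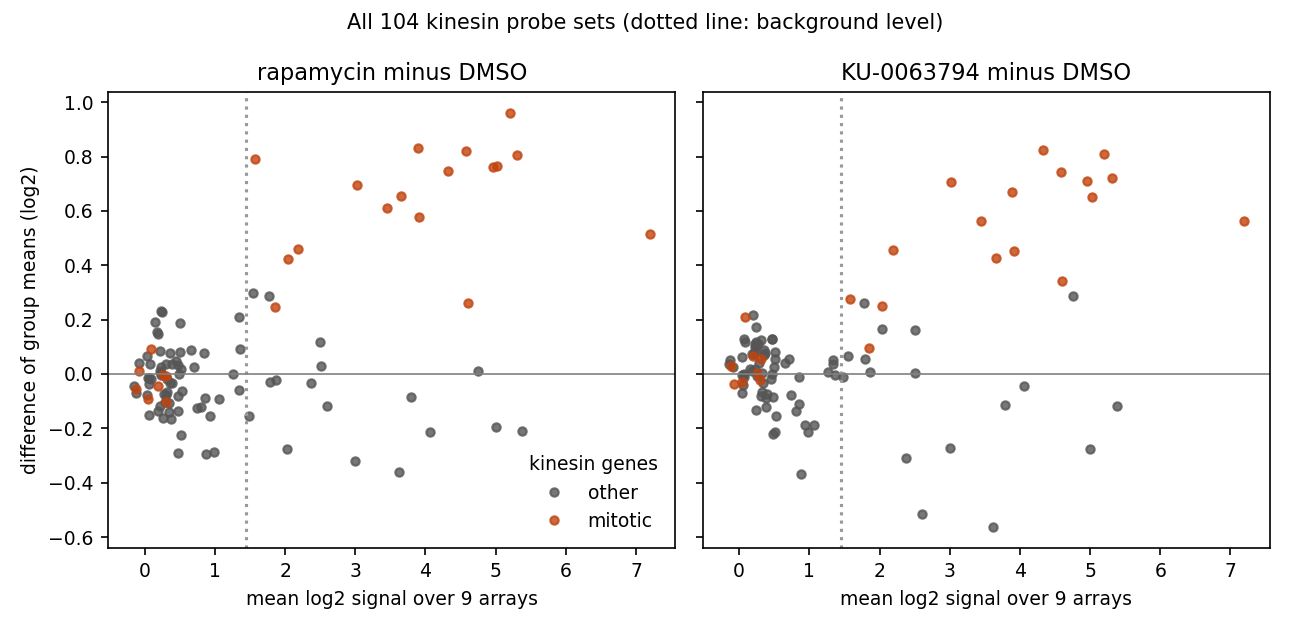
Difference of group means (vertical axis, log2) against mean signal over 9 arrays (horizontal axis, log2) for all 104 kinesin probe sets, mitotic in red and others in grey; the dotted line is background. The 17 mitotic probe sets to the right of the line all lie above 0, with medians of 0.70 and 0.56, and those to the left lie around 0.

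The mitotic kinesins work with other spindle proteins, and a list of 26 such partners was read in the same fit. With rapamycin 19 of the 26 rose and none fell, and with KU-0063794 15 rose and none fell, where 2.65% and 2.28% of all genes rose and 1.79% and 1.78% fell. Their median log2 fold change was 0.58 and 0.54. With the spleen as a block 23 and 24 rose, where 6.24% and 6.52% of all genes did. The count with rapamycin was 11 without DMSO replicate 1, rapamycin replicate 1 or rapamycin replicate 3. With KU-0063794 it was 5 without DMSO replicate 1, and 3, 6 and 5 without KU-0063794 replicates 1, 2 and 3. It was 6 and 2 when only the 2 groups compared were fitted, and 0 in limma with any spleen left out. Aspm, a spindle pole protein, rose from 3.50 ± 0.26 (SD, n = 3) to 4.59 ± 0.13 and 4.57 ± 0.12. Racgap1, the partner of Kif23, rose from 5.09 ± 0.12 to 5.76 ± 0.05 with rapamycin and 5.66 ± 0.11 with KU-0063794. Cenpe, a kinesin of the kinetochore whose symbol falls outside the family rule, rose by 0.76 (limma adjusted p = 0.00900) and 0.58 (adjusted p = 0.0201).

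The kinetochore proteins Ndc80 (0.80 and 0.74) and Nuf2 (0.71 and 0.70) and the checkpoint protein Mad2l1 (0.61 and 0.54) also rose with both. Aurkb, the kinase of the passenger complex that Kif20a carries, rose by 0.68 and 0.56. Prc1, the bundling protein that brings Kif4 to the central spindle, differed by 0.40 (limma adjusted p = 0.0960) and 0.38 (adjusted p = 0.110), which became 0.0408 and 0.0464 with the spleen as a block. Cit, the citron kinase that acts with Kif14, gave -0.22 and -0.16 and did not pass.

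Genes that serve the cargo motors were read likewise. Of 18 tested light chains and cargo adaptors none passed with either inhibitor in limma, where 4.44% and 4.07% of all genes did. At an unadjusted p under 0.05 there were 1 and 3 (5.56% and 16.7%, beside 17.9% and 18.5% of all genes). With the spleen as a random block 1 passed with rapamycin. Klc1, a kinesin light chain, gave -0.30 and -0.19, and Trak1, a mitochondrial adaptor, -0.27 and -0.13. Of 27 genes of dynein, the motor of the opposite direction, its partner dynactin and their regulators, 2 rose and 1 fell with each inhibitor, where 2.65% and 2.28% of all genes rose and 1.79% and 1.78% fell. In either direction, 8 and 15 of the 27 had an unadjusted p under 0.05. These are 29.6% and 55.6%, above the 17.9% and 18.5% of all genes. Zwilch, which recruits dynein to kinetochores, rose by 0.91 and 0.92, while Ndel1, a dynein regulator, fell by 0.46 and 0.44. Nde1 rose with rapamycin (0.60) and Zw10, a partner of Zwilch, with KU-0063794 (0.37). With the spleen as a block the counts for dynein were 4 higher and 2 lower with rapamycin, and 4 higher and 6 lower with KU-0063794, where 6.24% and 6.52% of all genes were higher and 5.52% and 5.86% lower. Without a block, the 3 calls with rapamycin became 1 without DMSO replicate 1 or rapamycin replicate 3, and the 3 with KU-0063794 became 1 without DMSO replicate 1 or 2 or any KU-0063794 replicate.

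Of 17 tubulins and microtubule proteins, 2 rose and 2 fell with rapamycin, and 2 rose and 1 fell with KU-0063794, where 2.65% and 2.28% of all genes rose and 1.79% and 1.78% fell. In either direction, 8 of the 17 had an unadjusted p under 0.05 with each inhibitor. These are 47.1%, above the 17.9% and 18.5% of all genes. With the spleen as a block 3 rose and 3 fell with each, where 6.24% and 6.52% of all genes rose and 5.52% and 5.86% fell. The 4 calls with rapamycin became 1 without DMSO replicate 1, and 2 without DMSO replicate 3, rapamycin replicate 1 or 3, or any KU-0063794 replicate. The 3 calls with KU-0063794 became 1 without DMSO replicate 1 or KU-0063794 replicate 1 or 2. Stmn1, which binds free tubulin, rose from 8.54 ± 0.19 (SD, n = 3) to 9.58 ± 0.09 and 9.46 ± 0.06, and Tubb5 rose by 0.32 and 0.37. Tubb2a fell from 4.15 ± 0.61 to 2.34 ± 0.34 and 2.26 ± 0.29, and Tubb6 fell by 1.14 with rapamycin (limma adjusted p = 0.0437). In the comparison of KU-0063794 with rapamycin 0 genes of these lists passed, with 0, 2, 1 and 0 partners, adaptors, dynein genes and tubulins at an unadjusted p under 0.05.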

How the data were processed

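Total RNA of 9 cultures was measured on 9 Affymetrix arrays. The deposited values are log2 signals per probe set, made by the authors with Affymetrix Expression Console 1.3.1, per the submitters' processing notes; the summarisation and normalization are not given in the sources used here. They were used as deposited. Of 45101 probe sets, 64 were controls, 34945 carried 1 symbol, 932 several and 9160 none in the annotation table. Each gene took its probe set with the highest mean. Genes with a mean above the 40th percentile (0.31), 13278 in all, entered limma 3.58.1 under R 4.3.3 (lmFit and eBayes, 3 groups, 9 arrays, two-sided, Benjamini-Hochberg over all tested genes, threshold 0.05), after a check on simulated data. The fit has no spleen term. A spleen block is the paired alternative: deviations from group means correlated at 0.345 to 0.533 in the 9 same-spleen pairs and at -0.414 to -0.0791 in the 18 others, and the labels state that cultures share spleens. Within a group the deviations cancel out, so the negative correlations largely follow from the positive ones and are not separate evidence of pairing. Named genes were all mitotic kinesins, other kinesins above background, and for partner lists up to 6 with the lowest adjusted p; direct kinesin partners (Aurkb, Prc1, Cit, Klc1, Trak1) and Kif9 and Kifc3 were added after their values were seen. The members and lists were chosen with earlier results of these data known. The number of arrays limits the precision. Promoter letters and gene positions came from RefSeq (GRCm38.p6).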

Additional observations from a re-analysis of the deposited data

How the results depend on the processing

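Against DMSO, no tested mitotic kinesin changed direction under any of the 33 alternatives, and the difference between the medians of the mitotic and other kinesins stayed between 0.60 and 0.89 with rapamycin and between 0.39 and 0.71 with KU-0063794. The number of mitotic kinesins called was 9 in both comparisons with the spleen (replicate) block, fixed or random, and 6 to 9 under other normalizations, filters, probe set rules and eBayes options. It was 1 in both when only the 2 groups compared were fitted. With 1 array left out it was 5 to 9 with rapamycin and 1 to 8 with KU-0063794, and with a spleen left out 0. With the block and 1 array left out, chosen after seeing the data, it was 6 to 9 and 4 to 9. All genes called were 590 and 540, and 1561 and 1644 with the block. They were 98 and 111 in the 2-group fits, 183 to 514 and 123 to 548 with 1 array left out, and 0 to 1 and 0 to 3 with a spleen left out. Of the other kinesins, 1 (Kif1c) passed with KU-0063794 under the random block. The block changed no other kinesin's call. The mean of all probe sets of Kif20b, of which 3 lie below background, gave 0.23 and 0.21 and did not pass.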
